A study of Caenorhabditis elegans with 11 samples.

Results

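The 9 genes described here encode the enzymes of both routes by which Caenorhabditis elegans breaks down propionate. They were taken by name from the gene tables, and all 9 were found among 46926 listed genes. The propionate shunt is represented by 5 genes, acdh-1, ech-6, hach-1, hphd-1 and alh-8, and the canonical pathway by 4 genes, pcca-1, pccb-1, mce-1 and mmcm-1. The 9 genes were chosen as members of these routes, with earlier results of these data known.

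Transcript levels came from RNA sequencing of whole L4 larvae fed HT115 E. coli, in 11 libraries. There were 3 libraries of wildtype, 3 of atfs-1(null) and 3 of the double mutant, which carries both atfs-1(null) and nhr-180(cmh19), and 2 of nhr-180(cmh19) alone, numbered 2 and 3. ATFS-1 is a transcription factor that switches on mitochondrial stress genes, and NHR-180 is a member of the nuclear hormone receptor family. The sources used here do not give the molecular lesion of cmh19. The sample titles name cmh19 as the nhr-180 allele and mark the atfs-1 mutation only as null, without an allele name.

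Propionate arises from the breakdown of valine, isoleucine, odd-chain fatty acids and propionate made by gut bacteria. In the canonical pathway propionyl-CoA is carboxylated, epimerised and rearranged to succinyl-CoA, and the last step needs vitamin B12, which worms obtain from their bacterial food. When B12 is scarce and propionate accumulates, worms switch on the shunt, a route through acrylyl-CoA, 3-hydroxypropionate and malonic semialdehyde to acetyl-CoA that needs no B12, and acdh-1 is widely used as a reporter of that state.

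Library totals lay between 20860822 and 22921602 counts, with 19208 to 19775 genes detected, and the 9 genes together took between 0.217% and 0.389% of a library. The libraries followed their labels. Of those carrying atfs-1(null), atfs-1(null) replicate 1 held 10 counts of atfs-1 and the rest 59 to 99, while libraries without that mutation held at least 902. Those carrying nhr-180(cmh19) held 6 to 13 counts of nhr-180 and the others 65 to 121. The first principal component of all genes held 41.9% of the variance and separated libraries with and without atfs-1(null). Wildtype scored 42.8 to 44.2 on it and nhr-180(cmh19) 45.3 and 45.8. The scores were -47.3 to -32.8 in atfs-1(null) and -42 to -29.6 in the double mutant. The second component held 20.5% of the variance. On it atfs-1(null) replicate 1 scored 30.9 and its companions -43 and -31.3, and wildtype replicate 2 scored -43 against -5.25 and -18.5. The nhr-180(cmh19) libraries scored 29.5 and 38.2 and the double mutant libraries 11.2 to 18.8. On this second component wildtype thus lay apart from both genotypes with the nhr-180 mutation. Summed intestinal markers lay between 6215 and 8004 CPM (counts scaled to library size) in all groups, with 7 of 8 matched by name. Of these markers asp-1 held the most counts, 1110081 in all libraries, and act-5 came next with 307937. Single markers differed in atfs-1(null) against wildtype, where act-5 fell (log2 fold change -0.62, edgeR adjusted p = 0.03), as 6.77% of all genes did. The other values lay between -0.37 for elt-2 and 0.36 for ges-1, none of them called. Summed oocyte markers (8 of 8 matched) lay between 246 and 480 CPM in wildtype, 353 and 441 in nhr-180(cmh19), 458 and 1096 in atfs-1(null), and 1293 and 1917 in the double mutant.

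Of the shunt genes acdh-1 and hphd-1 fell in nhr-180(cmh19) against wildtype, acdh-1 to the greater extent, and no canonical gene was called. Levels of the other 3 shunt genes were lower there but missed the threshold, and a difference between the routes was not tested. Levels below are CPM on TMM-adjusted library sizes. Fold changes are log2 values with standard errors, and adjusted p-values are from edgeR's quasi-likelihood test over 16013 genes, with 0.05 as the threshold. In these whole animals fewer cells expressing a gene and less transcript per cell cannot be told apart.

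The first shunt enzyme is ACDH-1, an acyl-CoA dehydrogenase that turns propionyl-CoA into acrylyl-CoA, encoded at I:6497436-6499560 on the plus strand (WBcel235). Wildtype replicates 1 to 3 held 687, 471 and 572 CPM of acdh-1. The nhr-180(cmh19) libraries held 69.5 and 108. The double mutant held 346, 327 and 307, and atfs-1(null) held 1202, 788 and 613. Both nhr-180(cmh19) libraries were thus below every other library, the double mutant libraries lay between them and wildtype, and atfs-1(null) overlapped wildtype with replicate 1 above all others. Relative to the wildtype mean, acdh-1 stood at 15.4% ± 4.76 (SD, n = 2) in nhr-180(cmh19), at 56.6% ± 3.41 (SD, n = 3) in the double mutant and at 151% ± 52.5 (SD, n = 3) in atfs-1(null).

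The second enzyme, the enoyl-CoA hydratase ECH-6, converts acrylyl-CoA to 3-hydroxypropionyl-CoA, and its gene lies at III:9751552-9752883 on the minus strand. Transcript of ech-6 measured 429, 414 and 452 CPM in wildtype and 259.9 and 300.3 in nhr-180(cmh19). It measured 318, 329.6 and 291 in the double mutant and 489, 369.5 and 341 in atfs-1(null). The wildtype libraries were above those of both genotypes with the nhr-180 mutation, which overlapped each other.

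The hydrolase HACH-1 then releases 3-hydroxypropionate, and hach-1, at III:5555450-5557318 on the plus strand, was the least abundant shunt transcript by CPM outside nhr-180(cmh19). Its level was 159, 149 and 163 CPM in wildtype, 108 and 121 in nhr-180(cmh19), 115, 123 and 111 in the double mutant, and 176, 126 and 127 in atfs-1(null). As for ech-6, wildtype exceeded both genotypes with the nhr-180 mutation, and atfs-1(null) replicate 1 was the highest library.

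The dehydrogenase HPHD-1 oxidises 3-hydroxypropionate to malonic semialdehyde, and hphd-1 lies at II:12994354-12996571 on the minus strand. Its transcript measured 333, 253 and 293 CPM in wildtype, 151 and 158 in nhr-180(cmh19), 259, 222 and 268 in the double mutant, and 370.1, 343 and 320.1 in atfs-1(null). After acdh-1 it stood lowest against wildtype in nhr-180(cmh19), at 52.8% ± 1.82 (SD, n = 2), and the double mutant overlapped wildtype.

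The last enzyme, the aldehyde dehydrogenase ALH-8, makes acetyl-CoA from malonic semialdehyde, and alh-8 lies at II:11729055-11731198 on the plus strand. It measured 750.03, 691 and 721 CPM in wildtype, 522 and 561 in nhr-180(cmh19), 639, 542 and 631 in the double mutant, and 773, 708 and 716 in atfs-1(null). Wildtype again lay above both genotypes with the nhr-180 mutation. A stretch of 34 bases of alh-8 overlaps F13D12.8 on the opposite strand, whose summed count was 1.43% of that of alh-8.

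In the canonical pathway, PCCA-1 and PCCB-1 are the subunits of propionyl-CoA carboxylase, which makes methylmalonyl-CoA. The gene pcca-1 lies at X:7657542-7660986 on the minus strand. It measured 418, 425 and 407 CPM in wildtype, 467 and 388 in nhr-180(cmh19), 355, 299 and 363 in the double mutant, and 250.1, 335 and 388 in atfs-1(null). Every library lacking atfs-1 lay below every wildtype library, while the nhr-180(cmh19) libraries fell on either side of wildtype.

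The partner gene pccb-1, at X:3089549-3092437 on the plus strand, measured 319, 337 and 318 CPM in wildtype, 384 and 354 in nhr-180(cmh19), 327, 290.01 and 329.96 in the double mutant, and 289, 322 and 341 in atfs-1(null). The nhr-180(cmh19) libraries were the highest, and the other genotypes overlapped. Its end shares 43 bases with wrt-2 on the opposite strand, and the sources used here do not give the strand setting of the counting. Counts of the whole wrt-2 gene summed to 33.8% of those of pccb-1, from 19.2% in an atfs-1(null) library to 64.5% in a wildtype library. Reads in the shared 43 bases were not counted apart, so any part of wrt-2 in the pccb-1 level is unknown.

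The epimerase gene mce-1, at I:7582106-7583333 on the plus strand, had the lowest mean CPM of the 9 in every group, and in nhr-180(cmh19) replicate 2 acdh-1 lay below it. It measured 54.5, 75.4 and 58.4 CPM in wildtype, 72.1 and 67.8 in nhr-180(cmh19), 63.5, 65.3 and 48.4 in the double mutant, and 54.6, 62.5 and 51.4 in atfs-1(null), with no pair of genotypes fully apart except nhr-180(cmh19) above both genotypes lacking atfs-1. The B12-dependent methylmalonyl-CoA mutase gene mmcm-1, at III:3903185-3907687 on the minus strand, measured 168, 169 and 166 CPM in wildtype and 187 and 170.4 in nhr-180(cmh19). It measured 154, 144 and 169 in the double mutant and 129, 147 and 167 in atfs-1(null). The 3 wildtype libraries of mmcm-1 differed by less than 4 CPM.

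**Figure D1:**
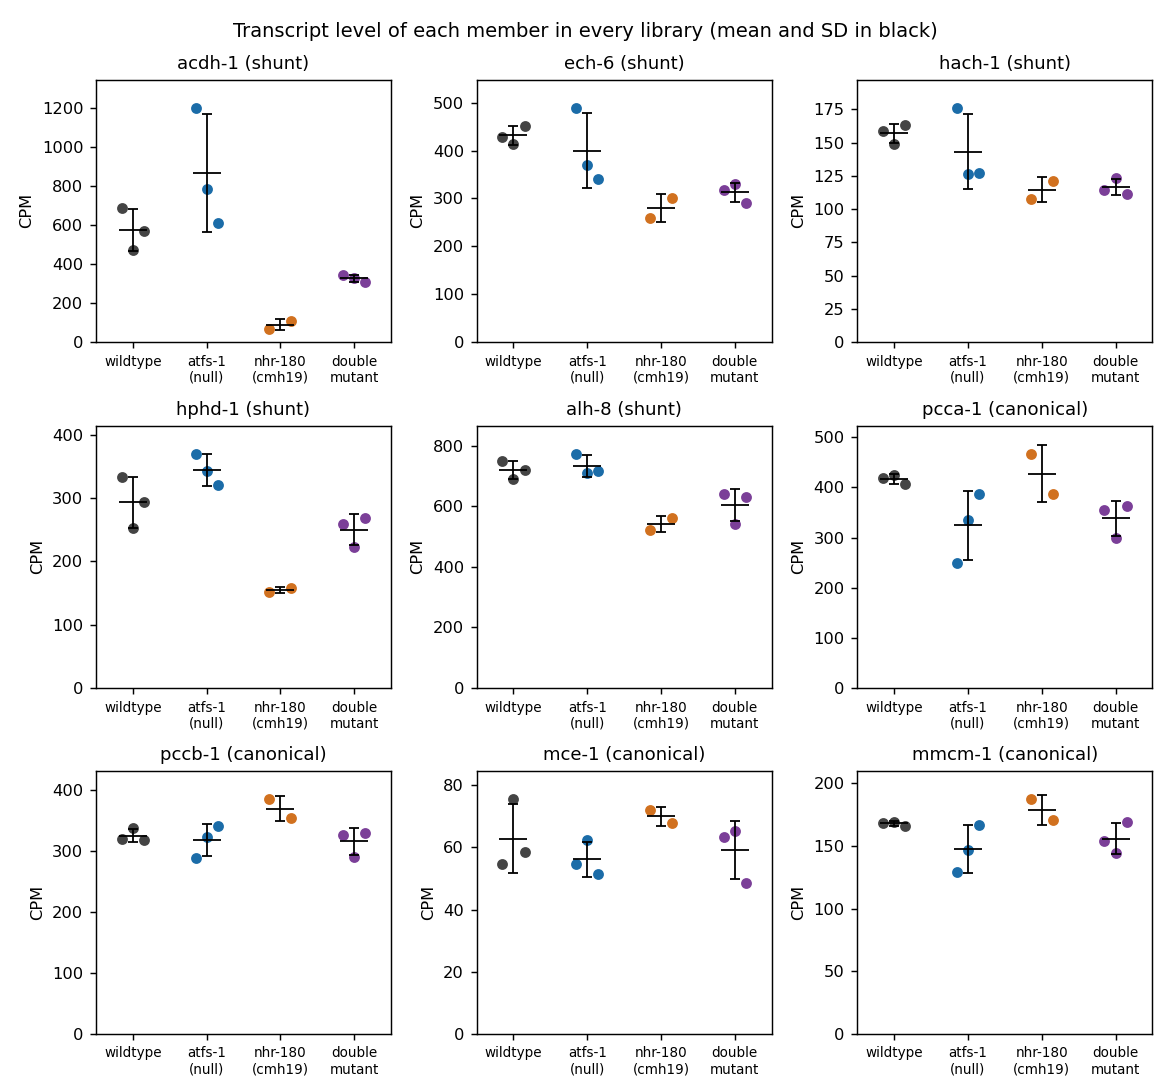
Transcript level (CPM, linear axes from 0) of each of the 9 propionate genes in every library of the 4 genotypes, with the mean and SD in black (n = 3, or n = 2 for nhr-180(cmh19)). The nhr-180(cmh19) points for acdh-1, at 69.5 and 108 CPM, lie below all others, while those for pccb-1 and mmcm-1 lie above all wildtype points.

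In nhr-180(cmh19) against wildtype all 5 shunt genes had negative log2 fold changes and non-overlapping libraries, and 2 of them, acdh-1 and hphd-1, fell past the threshold. Among all 16013 tested genes 0.662% fell past it in this comparison and 22.4% had every nhr-180(cmh19) library below every wildtype library. The log2 fold change of acdh-1 was -2.70 ± 0.31 (adjusted p = 0.00147), the 27th lowest value of all genes tested, and that of hphd-1 was -0.92 ± 0.16 (adjusted p = 0.0155). The values for ech-6, hach-1 and alh-8 were -0.62 ± 0.17 (adjusted p = 0.0966), -0.45 ± 0.17 (adjusted p = 0.183) and -0.41 ± 0.14 (adjusted p = 0.147). The median over the 5 shunt genes was -0.62, beside -0.02 over all genes tested.

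None of the 4 canonical genes passed the threshold in nhr-180(cmh19) by edgeR, and none had an unadjusted p under 0.05, which 5 of the 9 genes, the shunt genes, had, beside 7.21% of all genes lower at that level. DESeq2 called 4 of the 9 genes lower, acdh-1, hphd-1, ech-6 (adjusted p = 0.0199) and alh-8 (adjusted p = 0.0174), where it called 2.4% of all genes lower. The canonical log2 fold changes were 0.04 ± 0.19 for pcca-1, 0.19 ± 0.14 for pccb-1, 0.16 ± 0.18 for mce-1 and 0.09 ± 0.14 for mmcm-1. Their 95% intervals reached at most 0.56, and at the lower end -0.38. Libraries of pccb-1 and mmcm-1 were all higher than wildtype, as were those of 25% of all genes. The acdh-1 call held when any 1 library was left out, with adjusted p at most 0.0341. The hphd-1 call did not hold without wildtype replicate 3 (adjusted p = 0.0741), without nhr-180(cmh19) replicate 2 (0.189) or without replicate 3 (0.136), as read by edgeR. Summed sperm markers were 367 and 388 CPM in nhr-180(cmh19) and 121 to 339 in wildtype, summed neuronal markers 287 and 288 against 297 to 323, and summed intestinal markers 7021 and 7230 against 6569 to 7124. The part of these in the shunt values was not tested.

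Loss of atfs-1 alone left no member past the threshold. In atfs-1(null) against wildtype 0 of 9 genes were called by edgeR, where 14.3% of all genes were, and 1 had an unadjusted p under 0.05, as 29.9% of all genes had. DESeq2 called 0. That gene was acdh-1, with a log2 fold change of 0.59 ± 0.25 (unadjusted p = 0.0389, adjusted p = 0.143) and a 95% interval from 0.04 to 1.14. Without atfs-1(null) replicate 1 its value was 0.27 (adjusted p = 0.435). The other shunt genes lay between -0.13 ± 0.15 for hach-1 and 0.23 ± 0.14 for hphd-1. In the canonical pathway pcca-1 had a log2 fold change of -0.36 ± 0.17 (adjusted p = 0.177) with all libraries lower, as 15.3% of all genes had. The values for mmcm-1, mce-1 and pccb-1 were -0.19 ± 0.13, -0.16 ± 0.16 and -0.03 ± 0.12.

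Within atfs-1(null) the libraries themselves diverged in both routes. Replicate 1 had the highest level of all 5 shunt genes and the lowest level of pcca-1, pccb-1 and mmcm-1. Its acdh-1 level of 1202 CPM compared with 613 in replicate 3, and its pcca-1 level of 250.1 CPM with 388. Summed body wall muscle markers (6 of 6 matched) were 3627 CPM in replicate 1, 5384 in replicate 2 and 10181 in replicate 3, and summed intestinal markers lay between 6871 and 7175 CPM in the group. Replicate 1 was also the highest of the group in summed hypodermal markers (3616 CPM against 2279 and 2074) and oocyte markers (1096 against 458 and 753). The same held for sperm markers (564 against 247 and 356) and neuronal markers (436 against 399 and 353). How many of all genes were likewise outermost in replicate 1 was not counted. The part of these tissues in the differences was not tested.

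Adding nhr-180(cmh19) to atfs-1(null) went with lower acdh-1 transcript. Compared with atfs-1(null), the double mutant had every library below every atfs-1(null) library for all 5 shunt genes, a pattern found in 6.1% of all genes. Of these 1, acdh-1, fell past the threshold (-1.41 ± 0.26, adjusted p = 0.0448), in a comparison in which 0.131% of all genes fell. The values for hphd-1, ech-6, hach-1 and alh-8 were -0.46 ± 0.14 (adjusted p = 0.285), -0.35 ± 0.15 (0.524), -0.30 ± 0.15 (0.612) and -0.28 ± 0.12 (0.522), read by edgeR. The shunt median was -0.35, beside 0.00 (-0.00412) over all genes. Canonical values lay between -0.01 ± 0.12 for pccb-1 and 0.08 ± 0.13 for mmcm-1, and all their libraries overlapped.

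The acdh-1 call in that comparison sat close to the threshold. With the 2 genotypes fitted alone its adjusted p was 0.15 (edgeR). It was above 0.05, up to 0.222, when any 1 of 8 libraries was left out, namely atfs-1(null) replicate 2, wildtype replicates 1 and 3, both nhr-180(cmh19) libraries and each double mutant library, and the fold change stayed between -1.61 and -1.11 throughout. Summed oocyte markers, 1293 to 1917 CPM in the double mutant and 458 to 1096 in atfs-1(null), also separated these groups, and their part in the shunt values was not tested.

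**Figure D2:**
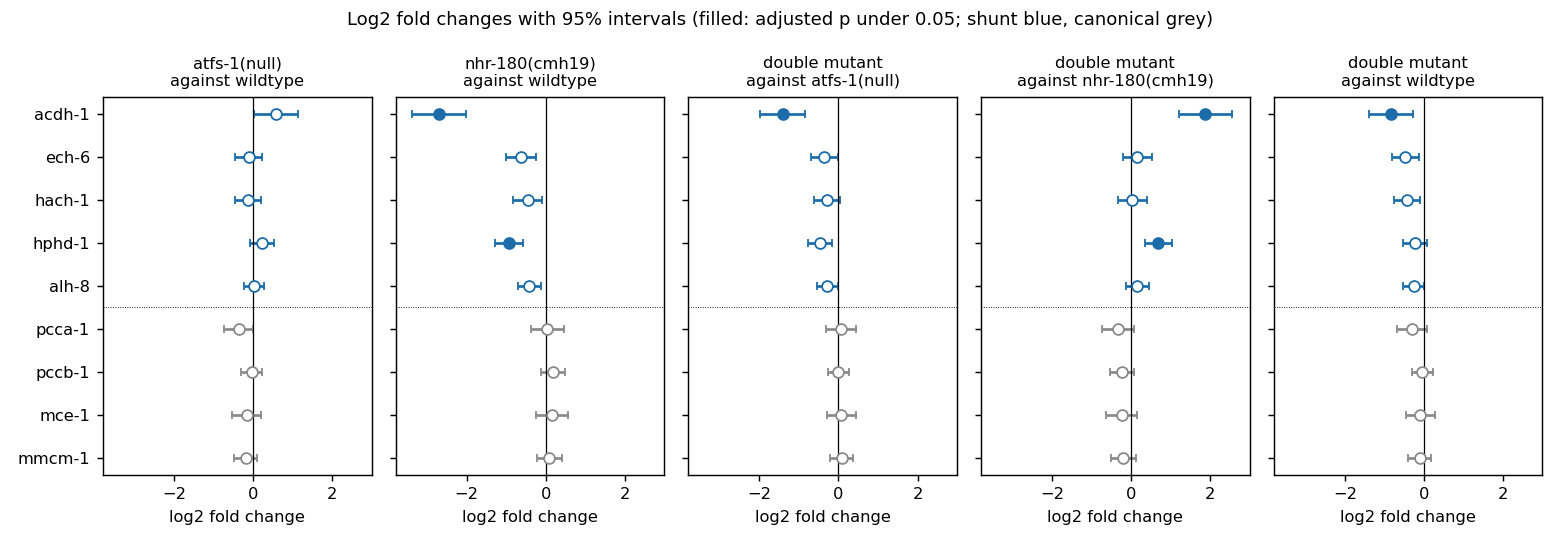
Log2 fold change of each gene in the 5 pairwise comparisons, with 95% intervals (shunt in blue, canonical pathway in grey, filled points for adjusted p under 0.05 in edgeR). Filled points are acdh-1 in 4 comparisons and hphd-1 in 2, and no canonical gene is filled.

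With atfs-1 absent, animals mutant for nhr-180 held more acdh-1 and hphd-1 than with atfs-1 present. Against nhr-180(cmh19) alone, in the double mutant acdh-1 rose by 1.88 ± 0.30 on the log2 scale (adjusted p = 0.00343) and hphd-1 by 0.69 ± 0.16 (adjusted p = 0.0151), 2 of 9 genes in a comparison in which 10.3% of all genes rose. The groups did not overlap for either gene, as for 28.2% of all genes in that direction. The remaining shunt genes had values of 0.16 ± 0.17 (ech-6), 0.02 ± 0.17 (hach-1) and 0.16 ± 0.13 (alh-8), with overlapping libraries. All 4 canonical genes had every double mutant library below both nhr-180(cmh19) libraries, as 26.7% of all genes had, and values from -0.33 ± 0.19 (pcca-1, adjusted p = 0.238) to -0.20 ± 0.14 (mmcm-1, adjusted p = 0.372). The hphd-1 call did not hold without nhr-180(cmh19) replicate 2 (adjusted p = 0.0998 in edgeR) or replicate 3 (0.102). All 8 oocyte markers rose in the same comparison, with summed levels of 1293 to 1917 CPM against 353 and 441, and summed neuronal markers were 319 to 379.8 CPM against 287 and 288. Their part in the acdh-1 and hphd-1 values was not tested.

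Against wildtype the double mutant also had less acdh-1 transcript. Of the 9 genes 1, acdh-1, fell past the threshold (-0.82 ± 0.25, adjusted p = 0.0483), where 6.27% of all genes fell. The values for ech-6 and hach-1, -0.47 ± 0.15 (adjusted p = 0.0609) and -0.43 ± 0.15 (adjusted p = 0.0725), missed it in edgeR and passed it in DESeq2 (0.0235 and 0.0329), which called 8.88% of all genes lower. For alh-8 the value was -0.26 ± 0.12 (adjusted p = 0.166) and for hphd-1 -0.23 ± 0.14 (adjusted p = 0.278). Libraries did not overlap with wildtype for acdh-1, ech-6, hach-1, alh-8 and pcca-1, all lower, as for 19.8% of all genes. Canonical values lay between -0.30 ± 0.17 for pcca-1 (adjusted p = 0.246) and -0.04 ± 0.12 for pccb-1. The acdh-1 call was lost when any 1 double mutant library, any 1 wildtype library or atfs-1(null) replicate 2 was left out, with adjusted p from 0.058 to 0.141 by edgeR. The 8 oocyte markers rose here too, from 246 to 480 CPM in sum to 1293 to 1917, and summed sperm markers were 121 to 339 CPM in wildtype and 343 to 522 in the double mutant, and their part in the acdh-1 value was not tested. These comparisons share libraries, since each group enters more than 1 of them.

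The interaction asked whether the nhr-180 mutation had a different effect with atfs-1 absent than with it present. For acdh-1 the effect was -2.70 with atfs-1 present and -1.41 with it absent, a difference of 1.29 ± 0.38 (unadjusted p = 0.0062, adjusted p = 0.163). No member of 9 was called by edgeR, beside 1.14% of all genes, and 1 had an unadjusted p under 0.05, beside 14.9%. DESeq2 called 1, acdh-1, with an adjusted p of 0.0499, and 3.05% of all genes. Without atfs-1(null) replicate 1 the acdh-1 difference was 1.58 (edgeR adjusted p = 0.0211), the only call among the fits leaving out 1 library. Over those 11 fits the difference ran from 1.005 to 1.645. For hphd-1 the difference was 0.46 ± 0.21 (unadjusted p = 0.0521, adjusted p = 0.341). The differences were 0.27 ± 0.23 for ech-6, 0.16 ± 0.22 for hach-1 and 0.13 ± 0.18 for alh-8, and from -0.20 ± 0.18 (pccb-1) to 0.03 ± 0.25 (pcca-1) in the canonical pathway.

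Compared per unit of transcript length, as the deposited TPM values, the order of the genes changed with genotype, and acdh-1 moved the most places. In wildtype ech-6 (464 ± 27.8 TPM, SD, n = 3), alh-8 (444 ± 26.9) and acdh-1 (376 ± 76.9) led, each overlapping its neighbour. Below them came hphd-1 (193 ± 29.8), pccb-1 (189.98 ± 2.65) and pcca-1 (186 ± 3.25), which overlapped in turn. These were followed, without overlap, by hach-1 (115 ± 7.44), and then by mce-1 (84.2 ± 13.1) and mmcm-1 (74.0 ± 1.24), whose ranges overlapped. In atfs-1(null) acdh-1 had the highest mean (592 ± 154 TPM), overlapping alh-8 (481 ± 20.1). The double mutant had acdh-1 in place 3 (233 ± 5.51), below ech-6 (369 ± 10.6) without overlap. In nhr-180(cmh19) it was last of the 9 (57.0 ± 12.97, n = 2), below mmcm-1 (78.9 ± 11.8) without overlap. Other genes changed order there too, again without overlap. The level of hphd-1 (101.2 ± 5.05) lay below that of pcca-1 (191.5 ± 41.15), and that of hach-1 (83.3 ± 0.211) below that of mce-1 (94.1 ± 12.04).

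The summed TPM of the shunt over that of the canonical pathway described the balance of the routes in transcript, not in flux. That ratio lay between 2.58 and 3.27 in wildtype and between 2.93 and 5.24 in atfs-1(null). It was 1.34 and 1.70 in nhr-180(cmh19) and lay between 2.34 and 2.50 in the double mutant. The nhr-180(cmh19) libraries were below all others and the double mutant libraries below all of wildtype. The share of acdh-1 in shunt TPM was 21.1% to 26.2% in wildtype, 26.4% to 36.3% in atfs-1(null), 17.2% to 18.7% in the double mutant, and 5.49% and 7.57% in nhr-180(cmh19). Leaving acdh-1 out of the sum, the ratio was 2.03 to 2.41 in wildtype, 2.15 to 3.34 in atfs-1(null), 1.94 to 2.03 in the double mutant, and 1.27 and 1.57 in nhr-180(cmh19), which was again below the other genotypes. The ratio of acdh-1 to mmcm-1 TPM, the first shunt step against the B12-dependent step, was 4.10 to 6.02 in wildtype, 5.42 to 13.75 in atfs-1(null), 2.67 to 3.35 in the double mutant, and 0.548 and 0.938 in nhr-180(cmh19). The carboxylase subunits stayed near parity in wildtype, with a pccb-1 to pcca-1 TPM ratio of 1.00 to 1.04, while it was 1.16 to 1.52 in atfs-1(null), 1.19 to 1.27 in the double mutant and 1.08 and 1.20 in nhr-180(cmh19). Whether the wrt-2 overlap named above affects that ratio was not tested.

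**Figure D3:**
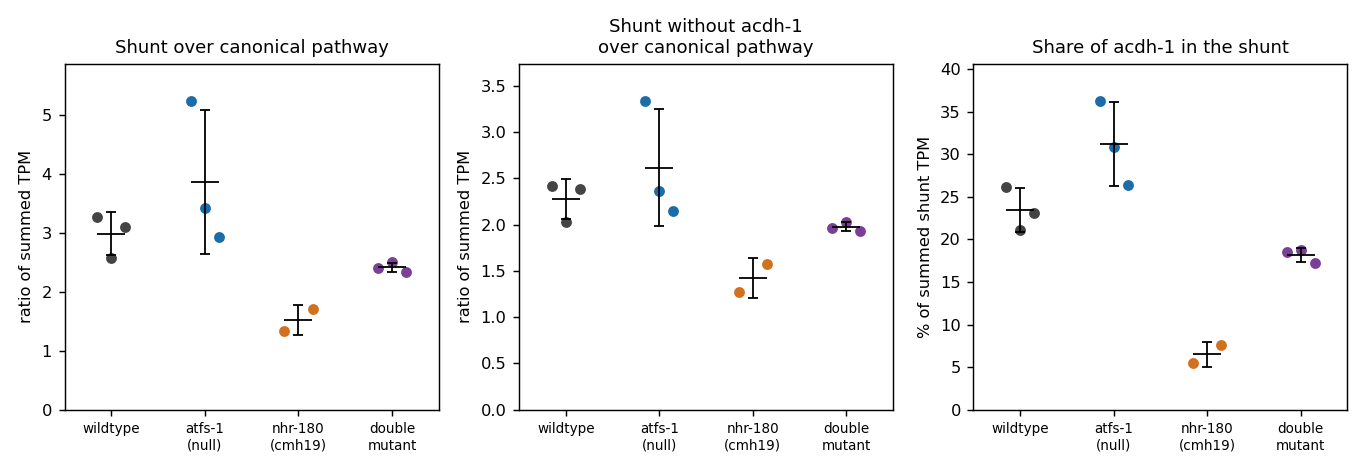
Ratio of summed TPM of the shunt to the canonical pathway with and without acdh-1, and the percent of shunt TPM held by acdh-1, by library, with the mean and SD in black. The nhr-180(cmh19) libraries, at ratios of 1.34 and 1.70 and shares of 5.49% and 7.57%, lie below all other libraries.

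Genes of B12 handling were examined beside the members, as 7 tested genes of 8 listed. In nhr-180(cmh19) against wildtype 3 of them fell and none rose, with a list median of -0.30, where 0.662% of all genes fell. They were pmp-5, whose human relative ABCD4 takes part in releasing B12 from lysosomes (-1.17 ± 0.14, adjusted p = 0.00171), the B12-dependent methionine synthase gene metr-1 (-0.94 ± 0.22, adjusted p = 0.0496) and the methionine synthase reductase gene mtrr-1 (-0.68 ± 0.14, adjusted p = 0.0354). Transcript of pmp-5 was 168, 132 and 153 CPM in wildtype, 65.0 and 69.2 in nhr-180(cmh19), 97.1, 103 and 105 in the double mutant, and 118, 121 and 119.6 in atfs-1(null). The 4 genotypes did not overlap for pmp-5, in the order wildtype, atfs-1(null), double mutant and nhr-180(cmh19). The metr-1 call was lost without any 1 of 9 libraries (adjusted p 0.0505 to 0.348), all but wildtype replicate 1 and atfs-1(null) replicate 1, and the mtrr-1 call without any 1 of 7 (0.0527 to 0.258), namely wildtype replicates 2 and 3 and every library carrying the nhr-180 mutation (edgeR). In 9 other analyses metr-1 was called in 4 (adjusted p up to 0.0878) and mtrr-1 in 6 (up to 0.0733).

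In the other comparisons 1 of the 7 genes fell in atfs-1(null) against wildtype, mtrr-1 (-0.68 ± 0.12, adjusted p = 0.00478), where 6.77% of all genes fell, and 1 rose in the double mutant against nhr-180(cmh19), pmp-5 (0.60 ± 0.14, adjusted p = 0.0153), where 10.3% rose. Against wildtype 2 fell in the double mutant, pmp-5 (-0.57 ± 0.12, adjusted p = 0.0107) and mtrr-1 (-0.63 ± 0.12, adjusted p = 0.00755), beside 6.27% of all genes. The pmp-5 rise was not called without nhr-180(cmh19) replicate 2 (0.105) or 3 (0.095), nor its fall in the double mutant without wildtype replicate 3 (0.0508, edgeR), and that fall was called in 8 of 9 other analyses (adjusted p up to 0.0502). Between the double mutant and atfs-1(null) 0 were called by edgeR or DESeq2, and 0 had an unadjusted p under 0.05.

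Of 5 regulators of the shunt and of B12 responses, 1 fell in nhr-180(cmh19) against wildtype, where 0.662% of all genes fell. This was nhr-114, a nuclear receptor gene needed for fertility on B12-poor bacteria (-0.72 ± 0.14, adjusted p = 0.0242). Its transcript was 58.4, 60.9 and 59.5 CPM in wildtype, 32.9 and 39.4 in nhr-180(cmh19), 59.0, 55.1 and 63.0 in the double mutant, and 57.7, 63.6 and 64.7 in atfs-1(null). Both nhr-180(cmh19) libraries lay below all others, and the level was higher in the double mutant by 0.71 ± 0.14 (adjusted p = 0.00741, or 0.0786 without nhr-180(cmh19) replicate 2), where 10.3% of all genes rose. Its call against wildtype was lost without wildtype replicate 2 (0.0851) or 3 (0.103), without nhr-180(cmh19) replicate 2 (0.255) or 3 (0.0808), or without double mutant replicate 1 (0.0515, edgeR). The receptor gene nhr-10, which acts in the activation of the shunt by propionate, fell in the double mutant against wildtype (-0.50 ± 0.15, adjusted p = 0.0483), a call lost without any 1 of 9 libraries, all but atfs-1(null) replicates 1 and 2 (0.062 to 0.159). It was called in 3 of 9 other analyses (adjusted p up to 0.177), and 6.27% of all genes fell in that comparison. Its partner in that activation, nhr-68, chosen here after its values were seen, was not called. It measured 39.9, 34.3 and 37.6 CPM in wildtype, 28.6 and 30.07 in nhr-180(cmh19), 32.3, 34.5 and 27.1 in the double mutant, and 43.3, 45.4 and 36.8 in atfs-1(null). Its log2 fold change was -0.35 ± 0.16 in nhr-180(cmh19) against wildtype (adjusted p = 0.261) and -0.42 ± 0.14 in the double mutant relative to atfs-1(null) (adjusted p = 0.354).

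Most genes of branched-chain amino acid breakdown, which in part feeds propionyl-CoA into both routes, were lower in the genotypes lacking atfs-1 than in wildtype. Of 8 genes, 6 fell in atfs-1(null) against wildtype, where 6.77% of all genes fell, and 6 in the double mutant against wildtype, with list medians of -0.78 and -0.65 beside 0.06 and 0.02 over all genes. The first count was 3 on TPM at either pseudocount or without a minimum, and 4 to 7 when a library was left out, with 4 without wildtype replicate 1 or 3. The second count was 3 to 7 in the other analyses and 3 without wildtype replicate 1 or 3 or double mutant replicate 1 or 2. In nhr-180(cmh19) against wildtype 0 were called by edgeR or DESeq2, with 1 unadjusted p under 0.05 in edgeR, beside 18.8% of all genes. Levels were still somewhat lower there, with a list median of -0.22 beside -0.02 over all genes. For 6 of the 8 every nhr-180(cmh19) library lay below every wildtype library, as for 22.4% of all genes. The decarboxylase subunit gene bckd-1B measured 189, 195 and 189 CPM in wildtype, 161 and 169 in nhr-180(cmh19), 98.5, 104 and 95.2 in atfs-1(null), and 106, 111 and 102 in the double mutant. Its log2 fold change was -0.94 ± 0.11 in atfs-1(null) (adjusted p = 0.00029) and -0.84 ± 0.11 in the double mutant (adjusted p = 0.000849). The transacylase gene dbt-1 (-0.87 ± 0.11, adjusted p = 0.000668) and the leucine pathway gene mccc-2 (-0.86 ± 0.12, adjusted p = 0.000946) also fell in atfs-1(null). Between the double mutant and nhr-180(cmh19) 4 fell, where 8.21% of all genes fell, with 1 to 5 in the other analyses and 0 to 2 when either nhr-180(cmh19) library or double mutant replicate 1 or 2 was left out, and in the double mutant relative to atfs-1(null) 0 were called by edgeR or DESeq2 and 0 had an unadjusted p under 0.05. Pyrimidine and beta-alanine breakdown, which also reaches malonic semialdehyde, had 1 of 5 genes lower in atfs-1(null), the dihydropyrimidinase gene dhp-2 (-0.63 ± 0.14, adjusted p = 0.0126), beside 6.77% of all genes, and 2 lower in the double mutant against wildtype, beside 6.27%, dhp-2 (-0.73 ± 0.14, adjusted p = 0.00646) and the dehydrogenase gene dpyd-1 (-0.78 ± 0.22, adjusted p = 0.0367). The first dhp-2 call was lost without wildtype replicate 2 (0.0508), and the dpyd-1 call without any 1 wildtype, nhr-180(cmh19) or double mutant library (0.0533 to 0.107, edgeR). In 9 other analyses the first dhp-2 call was made in 4 (adjusted p up to 0.0652) and the dpyd-1 call in 6 (up to 0.13).

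Of 12 other acyl-CoA dehydrogenase genes 1, acdh-2, was lower in nhr-180(cmh19) than in wildtype and 0 were higher, where 0.662% of all genes fell, while 5 had an unadjusted p under 0.05 in edgeR, beside 18.8% of all genes, and DESeq2 called 1. Counts of acdh-2 were 9, 13 and 11 in wildtype, 1 and 1 in nhr-180(cmh19), 184, 279 and 184 in atfs-1(null), and 86, 68 and 78 in the double mutant. Scaled by library size, wildtype held 11.7 times as much acdh-2 as nhr-180(cmh19), with a counting interval of 2.98 to 100.3, and the double mutant 75.2 times as much, with an interval of 20.6 to 624.9. These 95% intervals cover counting error only. In atfs-1(null) acdh-2 rose by 4.12 ± 0.26 on the log2 scale (adjusted p = 5.78e-06), and in the double mutant it lay 1.43 ± 0.21 below atfs-1(null) (log2 fold change -1.43, adjusted p = 0.0161). The fall in nhr-180(cmh19) was not called without wildtype replicate 2 (adjusted p = 0.0524) or 3 (0.0502) or nhr-180(cmh19) replicate 2 (0.161) or 3 (0.141), and the last difference not without atfs-1(null) replicate 2 (0.0538) or any 1 double mutant library (0.054 to 0.116, edgeR). Each was called in 7 of 9 other analyses, with adjusted p up to 0.393 and 0.144. Counts of acdh-2 came to no more than 1.502% of those of acdh-1 in any library.

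Among the other acyl-CoA dehydrogenases, acdh-9 measured 118, 126 and 110.2 CPM in wildtype, 92.9 and 98.9 in nhr-180(cmh19), 47.2, 57.0 and 56.4 in atfs-1(null), and 49.0, 47.6 and 45.8 in the double mutant. Every library lacking atfs-1 was below all others, with a log2 fold change of -1.14 ± 0.12 in atfs-1(null) (adjusted p = 0.000194) and -1.31 ± 0.12 in the double mutant against wildtype (adjusted p = 0.000103). The gene acdh-7 was lower in the double mutant than in nhr-180(cmh19) by a log2 fold change of -0.97 ± 0.14 (adjusted p = 0.00238).

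**Figure D4:**
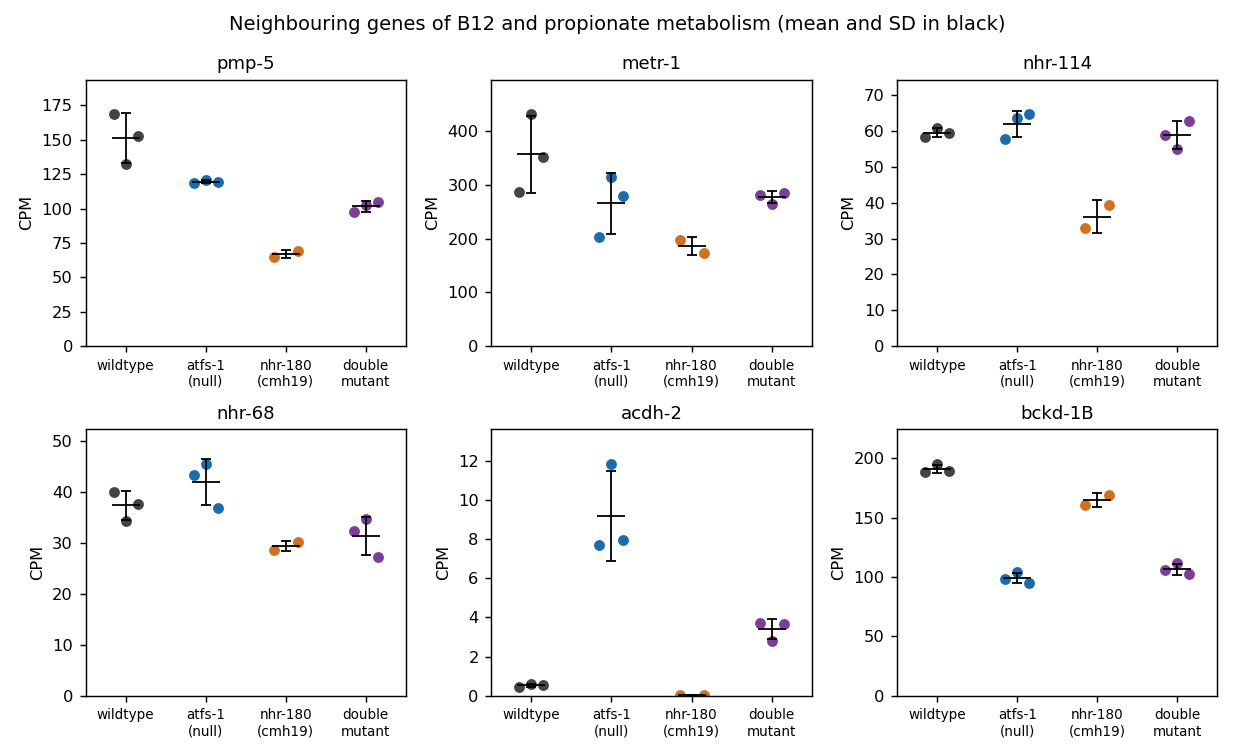
Transcript level (CPM, linear axes from 0) of 6 genes of B12 and propionate metabolism in every library, with the mean and SD in black. The nhr-180(cmh19) points are lowest for pmp-5 (65.0 and 69.2 CPM) and nhr-114 (32.9 and 39.4 CPM), and acdh-2 is highest in atfs-1(null).

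The genes whose profile over the 11 libraries was most like that of acdh-1 were ranked by Pearson's r of log2 CPM among 6592 tested genes that have a gene-class name and average at least 5 CPM. These libraries share the genotype differences already described, so r is a description of shape. The shunt gene hphd-1 ranked 1 (r = 0.974) and alh-8 ranked 3 (r = 0.901). Between them was dhgd-1 (r = 0.919), which encodes D-2-hydroxyglutarate dehydrogenase, an enzyme that removes the D-2-hydroxyglutarate formed in the HPHD-1 reaction. Transcript of dhgd-1 was 120.2, 103 and 118.7 CPM in wildtype, 75.5 and 80.3 in nhr-180(cmh19), 92.2, 90.7 and 91.5 in the double mutant, and 124, 108 and 97.7 in atfs-1(null). Its log2 fold change in nhr-180(cmh19) against wildtype was -0.55 ± 0.14 (edgeR adjusted p = 0.0803), and DESeq2 gave an adjusted p of 0.00804.

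Ranks 4 and 5 were held by ahcy-1 (r = 0.887), the S-adenosylhomocysteine hydrolase gene of the methionine cycle, and eif-2gamma (r = 0.881), a subunit of translation initiation factor 2. The gene ahcy-1 fell in nhr-180(cmh19) against wildtype (-0.86 ± 0.16, adjusted p = 0.0189) and rose in the double mutant against nhr-180(cmh19) (0.88 ± 0.16, adjusted p = 0.00522). Its fall was not called without wildtype replicate 2 (0.0728) or 3 (0.0722) or nhr-180(cmh19) replicate 2 (0.209) or 3 (0.0753), and its rise not without nhr-180(cmh19) replicate 2 (0.053, edgeR). Of the other shunt genes ech-6 ranked 25th (r = 0.835) and hach-1 120th (r = 0.713). Of the listed genes nhr-114 ranked 11th (r = 0.864), pmp-5 17th (r = 0.856) and nhr-68 30th (r = 0.828). Spearman's rank correlation was 0.936 for hphd-1, 0.927 for dhgd-1, 0.909 for alh-8, 0.736 for ahcy-1 and 0.718 for eif-2gamma. It was 0.473 for nhr-114, 0.727 for pmp-5 and 0.927 for nhr-68. The canonical genes had negative values by both measures. Pearson's r was -0.509 for mce-1, -0.516 for pcca-1, -0.653 for mmcm-1 and -0.739 for pccb-1. Spearman's values were -0.455 for mce-1, -0.327 for pcca-1, -0.655 for mmcm-1 and -0.618 for pccb-1.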

How the data were processed

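Counts per gene were deposited by the authors without normalisation for 46926 genes, and the submitters' processing notes name featureCounts 1.5.2. The TPM values deposited by the authors are length-normalised, cover 18798 genes, those whose counts sum to 10 or more, and come from the same reads. The sources used here do not give the aligner, annotation release or strand setting. All 9 members have the coordinates of the WBcel235 annotation.

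Counts were filtered with filterByExpr (16013 genes), TMM-normalised and fitted in edgeR 4.0.16 (R 4.3.3) with 1 mean per genotype over all 11 libraries. The common biological coefficient of variation was 21.7%. Quasi-likelihood tests were two-sided, with Benjamini-Hochberg adjustment over all tested genes and 0.05 as the threshold. Intervals are 95%. DESeq2 1.42.0, limma 3.58.1 on log2(TPM + 1) with a minimum of 1 TPM in 2 libraries, other filters and left-out libraries were alternatives. The other analyses counted beside a call, 9 or, for the interaction, 8, are DESeq2's test and size factors, no filter, the compared genotypes alone (pairwise only), the replicate block, TPM at either pseudocount or without a minimum, and the fit without both libraries apart on the second component. The scripts were tested on simulated data. The labels call the replicates biological, so p-values measure the spread between such samples.

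The members and lists were chosen with earlier results of these data known. Besides members and mutated genes, the text names up to 3 called genes per list (smallest adjusted p) and the 5 genes most like acdh-1. Neither mmad-1 nor the marker opt-2 was matched by name.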

Additional observations from a re-analysis of the deposited data

Results flagged for a closer look

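Among the propionate genes and the listed genes around them, a difference between backgrounds in the effect of the nhr-180 mutation was called for 1, pmp-5, where 1.14% of all genes were called. Its log2 fold change was -1.17 ± 0.14 in nhr-180(cmh19) against wildtype and -0.24 ± 0.12 in the double mutant relative to atfs-1(null), a difference of 0.935 ± 0.184 (edgeR interaction term, adjusted p = 0.0366). The call was lost without any 1 of 9 libraries, with adjusted p from 0.0712 to 0.185, and held without atfs-1(null) replicate 1 or wildtype replicate 2. It was made in 3 of 8 other analyses, with adjusted p up to 0.0871.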

How the results depend on the processing

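The count of members past the threshold was 0 in atfs-1(null) against wildtype under all settings tried. In nhr-180(cmh19) against wildtype it was 2, and 4 by DESeq2 or 3 on TPM at either pseudocount or without a minimum, with 1 to 3 when a library was left out. Between the double mutant and atfs-1(null) it was 1, and 0 with the compared genotypes alone, with 0 to 1 when a library was left out. Between the double mutant and nhr-180(cmh19) it was 2, with 1 to 2. Between the double mutant and wildtype it was 1, and 3 by DESeq2, with the compared genotypes alone or without the pair of libraries apart on the second component, 2 on TPM with a pseudocount of 1 or 0.1, and 0 on TPM without a minimum, with 0 to 3 when a library was left out. For the interaction it was 0, and 1 by DESeq2 or without that pair, with 0 to 1. The cause of these changes was not tested. With 2 libraries of nhr-180(cmh19), leaving out 1 assumes that the other varies like the remaining groups.

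Directions that turned belonged to values near 0, none of them called. On TPM the all-gene median was 0.114 in atfs-1(null) against wildtype and 0.11 and 0.13 in the double mutant against nhr-180(cmh19) and wildtype. On that scale pccb-1 became 0.0593 to 0.0595 in atfs-1(null) against wildtype, 0.0356 to 0.0358 in the double mutant relative to atfs-1(null), and 0.0949 to 0.0953 relative to wildtype. There mce-1 became 0.0513 to 0.0519 and mmcm-1 0.0271 to 0.0273, and the mmcm-1 interaction became 0.0420 to 0.0429. Without the pair of libraries apart, values in atfs-1(null) against wildtype became -0.039 for alh-8, 0.0663 for pccb-1 and 0.0181 for mce-1. The double mutant values then became -0.0959 for pcca-1 and -0.0126 for mmcm-1 relative to atfs-1(null), -0.0045 for hach-1 relative to nhr-180(cmh19) and 0.0702 for mce-1 relative to wildtype, and the pcca-1 interaction became -0.178. With no filter hach-1 in the double mutant relative to nhr-180(cmh19) was -0.00073.

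Leaving out 1 library turned these values, given as their ranges. In atfs-1(null) against wildtype alh-8 ran from -0.0376 to 0.0545 and pccb-1 from -0.0853 to 0.00775. In nhr-180(cmh19) against wildtype pcca-1 ran from -0.106 to 0.164. In the double mutant relative to atfs-1(null) pcca-1 ran from -0.0961 to 0.212, pccb-1 from -0.0761 to 0.0453, mce-1 from -0.0115 to 0.216 and mmcm-1 from -0.0129 to 0.176. Relative to nhr-180(cmh19) hach-1 ran from -0.0574 to 0.1095, and relative to wildtype mce-1 from -0.193 to 0.0653. In the interaction pcca-1 ran from -0.1335 to 0.175, mce-1 from -0.237 to 0.0667 and mmcm-1 from -0.104 to 0.0855.

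The replicate number as a block gave the same counts of called members. It turned pcca-1 in nhr-180(cmh19) against wildtype to -0.0066, hach-1 in the double mutant relative to nhr-180(cmh19) to -0.0258 and the mmcm-1 interaction to 0.0243, and took acdh-1 in the interaction to 1.18 (adjusted p = 0.135). Of 15 same-numbered pairs 5 had a correlation of deviations over 0.1 (-0.41 to 0.613). The highest was for replicate 3 of atfs-1(null) and the double mutant, and the lowest for replicate 3 of atfs-1(null) and nhr-180(cmh19). Of 11 libraries 5 correlated best with their own number. With so few libraries per genotype this check cannot decide whether the numbers pair the samples.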
